A study of Mus musculus with 2 samples.

Results

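The cells described here are those that the study's own annotation calls Gas6 fibroblasts, 1 of 5 classes given to cells of mouse lung stroma. A cell was a member if it carried that class value, had 500 or more detected genes, and had no more than 10% of its counts from mitochondrial genes. This gave 3097 of 14229 cells, namely 1095 of 6089 in the high fat diet library (HFD) and 2002 of 8140 in the normal chow library (NC). The study isolated fibroblastic stromal cells from lungs of C57Bl/6J mice fed high fat diet or normal chow for 16 weeks and profiled them with the 10x Genomics 3′ v3 droplet kit. Each diet has 1 library, the labels do not say how many animals went into it, and no genetic change is named in either. With no replicate there is no test of diet. Intervals below are 95% intervals for counting error only, and a gene is called higher or lower by size alone. The interval of a ratio uses a single variance factor per library, set on genes seen in few cells. It is therefore too narrow for genes whose counts vary more between cells, such as Mt1, Il6 or Ccl2. The class was 17.98% of HFD cells (exact binomial interval 17.03 to 18.97) and 24.6% of NC cells (23.66 to 25.55). The libraries shared 17 cell barcodes in all and 1 within the class. The other classes are Asc1 fibroblasts, Pi16 fibroblasts, myofibroblasts and pericytes.

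GAS6 is a secreted protein that depends on vitamin K and bridges phosphatidylserine on dying cells to the receptor tyrosine kinases TYRO3, AXL and MERTK (the TAM receptors). Lung fibroblasts include alveolar fibroblasts, which lie beside the alveolar epithelium and carry the amino acid transporter Asc-1 (Slc7a10), and adventitial fibroblasts around vessels and airways, marked by Pi16. Metallothioneins (Mt1, Mt2) are small proteins that bind zinc and copper and are induced by metals, glucocorticoids and inflammatory signals. The NF-kB transcription factors switch on cytokine genes such as Il6 and Cxcl1 together with their own inhibitors, while the unfolded protein response raises chaperones of the endoplasmic reticulum.

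Promoter stretches of genes from the chaperone, cytokine and NF-kB lists are shown because a pair of gene groups, the chaperones of the endoplasmic reticulum and the cytokine genes, carry much of what follows. Each is 80 bases, 5′ to 3′ on the gene's strand, from the RefSeq promoter table on build GRCm38.p6, which is not the build named for the deposited data (mm39). Capitals mark a match to a motif searched on both strands of the 250 bases before the start. For the chaperones it is the endoplasmic reticulum stress element, CCAAT and CCACG with 9 bases of any kind between them, found in 37 of 32851 promoters (0.113%) and in 7 of the 21 chaperone and unfolded protein response genes with an entry. For the cytokine group it is a kB motif, GGGA, any base, TT, any base and CC in a row, found in 322 promoters (0.980%), in 5 of 17 cytokine genes and in 5 of 17 genes of NF-kB signalling. A match is a description of the letters and not a measured site.
Hspa5 (chr2:34771994-34772073, + strand): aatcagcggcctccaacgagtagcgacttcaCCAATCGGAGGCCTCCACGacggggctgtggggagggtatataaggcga
Hsp90b1 (chr10:86705503-86705582, - strand): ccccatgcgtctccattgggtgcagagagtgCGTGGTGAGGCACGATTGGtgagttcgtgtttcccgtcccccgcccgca
Creld2 (chr15:88819489-88819568, + strand): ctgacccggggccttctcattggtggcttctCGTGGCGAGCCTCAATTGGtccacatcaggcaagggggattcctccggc
Pdia6 (chr12:17266460-17266539, + strand): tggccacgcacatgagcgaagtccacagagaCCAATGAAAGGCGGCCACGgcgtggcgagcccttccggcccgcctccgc
Il6 (chr5:30013034-30013113, + strand): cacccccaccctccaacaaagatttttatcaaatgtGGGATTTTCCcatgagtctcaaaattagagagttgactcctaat
Cxcl1 (chr5:90891139-90891218, + strand): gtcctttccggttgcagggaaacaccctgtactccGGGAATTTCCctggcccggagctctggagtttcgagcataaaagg
Cxcl2 (chr5:90903767-90903846, + strand): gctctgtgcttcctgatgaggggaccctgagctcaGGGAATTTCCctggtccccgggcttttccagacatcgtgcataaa
Nfkbia (chr12:55492648-55492727, - strand): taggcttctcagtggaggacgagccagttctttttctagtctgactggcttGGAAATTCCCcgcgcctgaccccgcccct

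The class had the highest median depth of the 4 fibroblast classes. Its median total was 16128 counts per cell in HFD and 12378.5 in NC, against 8472.5 and 6340 in the Asc1 class, ratios of 1.90 and 1.95. Pericytes were deeper still, at 19714.5 and 15459.5. The median number of detected genes was 1969 and 1886 against 1267 and 1205 in Asc1 cells. No HFD cell of the class had under 1206 detected genes. Of the 1955 HFD cells with 500 or more but under 1200 genes 0 belonged to the class (exact binomial upper bound 0.189%), as did 17 of 3005 such NC cells (0.566%). Among cells with at least 2000 genes the class was 520 of 1001 in HFD (51.9%) and 827 of 1053 in NC (78.5%). These cells include pericytes, whose share was larger in HFD. Of Gas6 and Asc1 cells alone, with 2000 to under 2500 genes, the class was 87.8% in HFD and 95.5% in NC. In HFD 256 class cells (23.4%) and in NC 550 (27.5%) had over 2-fold the median total of their library, against 0 Asc1 cells in either. The mitochondrial share was alike in both libraries, with medians of 3.45% and 3.39%. The part of depth in the class assignment was not tested, and no doublets were removed here.

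**Figure D1:**
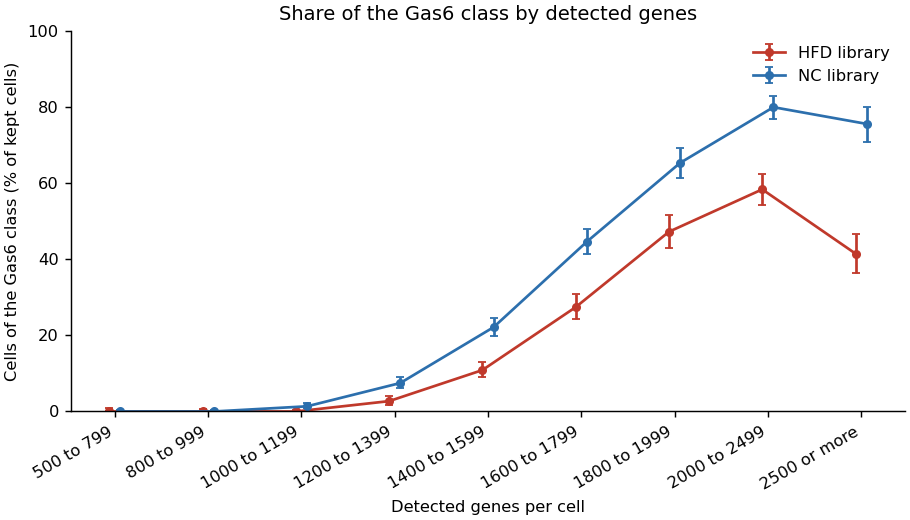
Share of kept cells that belong to the Gas6 class (y axis, percent) by number of detected genes per cell (x axis), for the HFD and NC libraries. In HFD the share is 0 below 1200 genes and 58.4% from 2000 to under 2500 genes. In NC it reaches 80.03% in that bin.

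Summed markers of other lineages were low in the class. Pecam1, Epcam, Ptprc, Sftpc, Msln and Cd3e, defining markers of endothelium, epithelium, leukocytes, alveolar type II cells, mesothelium and T cells, had no count in it. Why they had none was not tested, so these zeros alone do not show that a lineage was absent. Other markers did, as with the epithelial marker Scgb1a1 at 39.4 CPM in HFD and 20.7 in NC and the endothelial marker Ramp2 at 18.5 and 18.9. The summed level of 7 endothelial markers was 19.5 CPM (summed counts scaled to a common total) in HFD and 20.4 in NC, that of 8 epithelial markers 47.1 and 24.6, and that of 9 immune markers 33.2 and 68.8. Levels of mural genes were likewise low, with a contractile marker sum of 360 and 488 CPM against 28132 and 27131 in the pericyte class. Alveolar genes were high: the Asc1 marker sum was 11617 CPM in HFD and 8417 in NC, against 16467 and 12224 in the Asc1 class itself. The Pi16 marker sum was 2123 and 3166 CPM, against 10581 and 11813 in the Pi16 class.

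Of the 7 marker genes given for the class, 4 (Mt1, Mt2, Il6 and Mgp) were at their highest in it in both libraries. Mt1 stood at 7224 CPM in HFD and 8909 in NC, against 3336 and 5460 in Asc1 cells. The class nearest to it in Mt1 was that of myofibroblasts, at 5966 and 6894 CPM. Mgp, the matrix Gla protein that restrains calcification, stood at 16386 and 17050 CPM, little above the 15815 and 14795 of Pi16 fibroblasts. Gas6 itself was 250.3 and 309 CPM in the class, and 279 and 277 in Pi16 fibroblasts. By level, Gas6 thus ranked below the Pi16 class in HFD and above it in NC, and it lay between 101 and 128 CPM in the other 3 classes of both libraries. C4b, a complement component, was higher in Pi16 cells (1095 and 1163 CPM) than in the class (722 and 921). Thbs1, the matricellular protein thrombospondin 1, was higher in myofibroblasts (5260 and 8188 CPM) than in the class (3134 and 4568). The name therefore follows the annotation and not a level of Gas6 found only there.

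**Figure D2:**
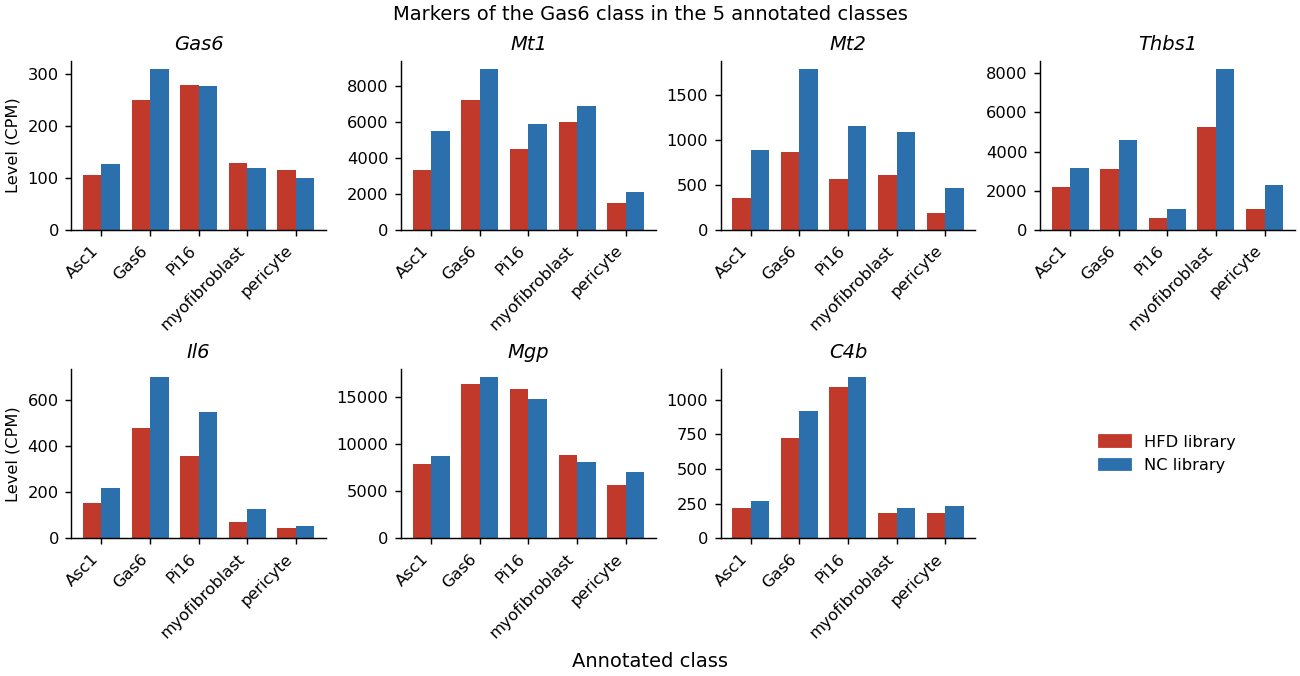
Level of the 7 class markers (y axes, CPM from summed counts) in the 5 classes, with HFD and NC bars side by side; no error is drawn because each bar is 1 library. Mt1, Mt2, Il6 and Mgp are highest in the Gas6 class in both libraries, Thbs1 is highest in myofibroblasts and C4b in Pi16 fibroblasts.

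After every cell was thinned to 3000 counts, a Gas6 count was present in 37.6% of class cells in HFD and 40.4% in NC. Unthinned, the shares were 60.4% and 61.3%. Asc1 cells had 14.4% and 16.9% at the same thinned depth, Pi16 cells 34.6% and 33.6%, and pericytes 22.2% and 18.6%. Il6, the acute-phase cytokine, was counted in 36.4% and 48.1% of thinned class cells (47.7% and 62.1% unthinned), against 27.4% and 35.02% of thinned Pi16 cells, 12.9% and 17.1% of Asc1 cells and 4.03% and 4.86% of pericytes. The class left out no cell at this thinning, while 68 Asc1 cells in HFD and 294 in NC were too shallow. Il6 was unevenly spread, with 59.3% of its HFD counts and 52.4% of its NC counts in the tenth of class cells that had most.

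Receptors for GAS6 were low in the same cells. Axl was at 21.2 CPM in HFD and 36.9 in NC (HFD over NC 0.573, interval 0.443 to 0.736), against 97.6 and 125 CPM in Pi16 fibroblasts. Mertk was at 22.4 and 22.3 CPM, below the 36.0 and 46.5 of Asc1 cells, and Tyro3 at 1.60 and 1.32 CPM. The related ligand protein S (Pros1) was at 137 and 156 CPM. Gas6 itself had an HFD over NC ratio of 0.811 (0.751 to 0.875). The enzymes that carboxylate GAS6 and recycle its vitamin K, Ggcx and Vkorc1, had ratios of 1.18 and 0.969. Of the 6 measured members of this group 0 were called higher in HFD and 1, Axl, lower, against 6.08% higher and 5.91% lower over all measured genes.

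Against the pooled Asc1, Pi16 and myofibroblast classes, 37 of 11077 genes (0.334%) were at least 2-fold higher in the class in both libraries and 100 (0.903%) at least 2-fold lower. These values describe a class that was itself drawn from the expression of the same cells, and they carry no test. Several genes of inflammation and lipid signalling led the list. Ptgs2, the inducible cyclooxygenase COX-2, was at 243 CPM in the class and 65.6 in the others in HFD, and at 298 and 105 in NC. Ch25h, which makes the sterol messenger 25-hydroxycholesterol, was at 55.6 against 18.2 CPM in HFD and 94.3 against 29.7 in NC. Adamts4, an aggrecan-cleaving protease, had ratios of 3.70 in HFD and 2.37 in NC, and Lpl, lipoprotein lipase, 2.46 and 2.58. Il6 followed with 2.50 and 2.40. The matrix metalloproteinase gene Mmp3 had 2.18 and 2.24, the galectin Lgals3 2.01 and 2.36, and the complement gene C2 1.94 and 2.10. The remaining high genes were Akap2, a kinase anchor protein (2.46 and 2.30), Kcne4, a potassium channel subunit (2.30 and 2.09), Cwc25, a splicing factor (2.17 and 2.04), and Txndc11, a thioredoxin-domain protein (1.95 and 1.92). C2 and Txndc11 did not reach 2-fold in both libraries and are not among the 37.

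The result depended on which class stood on the other side. Against Pi16 fibroblasts alone 4 of these 12 genes (Lpl, Mmp3, Lgals3 and C2) were below 1 in at least 1 library, with Mmp3 at 0.750 in HFD and 0.839 in NC. Ptgs2 was then at 1.43 and 1.02, Il6 at 1.34 and 1.27, and C4b at 0.659 and 0.792. Against Asc1 cells with as many detected genes as all but the shallowest 10% of the class, 606 in HFD and 846 in NC, a choice made after the data were seen, all 12 were above 1 in both libraries. Ptgs2 then stood 21.99-fold and 23.1-fold higher, Mmp3 10.8-fold and 9.03-fold, Il6 4.10-fold and 4.79-fold, and Gas6 2.54-fold and 2.65-fold. These deep Asc1 cells had a median of 1717.5 detected genes in HFD and 1613.5 in NC. Their median totals were 12529 and 9264.5 counts, below the 16128 and 12378.5 of the class. The 12 genes were ranked against a pool that holds these cells. That they lay above them was thus largely set beforehand, and it is no check on depth. The number of genes at least 2-fold higher in both libraries was 189 against Asc1 cells alone, 192 against the deep Asc1 cells and 299 against Pi16 cells alone.

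Lowest in the class against the pool were the following 6 genes. Lum, the proteoglycan lumican, had ratios of 0.194 in HFD and 0.169 in NC, Aspn, asporin, 0.197 and 0.165, and Tgfbi, a secreted matrix protein, 0.209 and 0.203. Hhip, the hedgehog-interacting protein, had 0.213 and 0.2001, Ebf1, a transcription factor, 0.248 and 0.220, and Cd9, a tetraspanin, 0.279 and 0.303. All 6 were nonetheless above Asc1 cells in both libraries, as with Ebf1 at 4.50 and 2.78. Of 9 measured myofibroblast markers 8 were at least 2-fold lower in the class in both libraries.

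The deposited tables hold another label for each cell, in a column headed 1z whose making and date are not stated. It is called the earlier label below because its column stands before that of the class, and by it the class was mixed. In HFD 406 class cells (37.1%) had the label gas6, 338 (30.9%) asc1, 29 (2.65%) pi16 and 322 (29.4%) N/A. In NC 941 (47.0%) had gas6, 277 (13.8%) asc1, 68 (3.40%) pi16 and 716 (35.8%) N/A. The asc1 share was thus larger in HFD and the gas6 share larger in NC. Every gas6-labelled cell had a Gas6 count, against 45.6% of asc1-labelled class cells in HFD and 46.2% in NC, so Gas6 cannot be used to describe that label.

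Cells with the gas6 and asc1 labels differed in other genes in the same direction in both libraries. Il6 was at 735 CPM in gas6-labelled and 172 in asc1-labelled class cells in HFD, and at 847 and 139 in NC. Ptgs2 was at 403 and 27.6 CPM in HFD, and at 386 and 33.1 in NC. Dcn, the proteoglycan decorin and a marker of adventitial cells, was at 1457 and 195 CPM in HFD, and at 1704 and 333 in NC. The inflammatory and adventitial genes were thus on the side of the gas6 label. Slc7a10, the Asc-1 transporter, went the other way with 26.7 and 161 CPM in HFD and 17.03 and 126 in NC. Npnt, the integrin ligand nephronectin of alveolar fibroblasts, was at 1043 and 1899 CPM in HFD and 885 and 1691 in NC, and Tcf21, a mesenchymal transcription factor, at 254 and 534 in HFD and 242 and 563 in NC.

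Between the diets, 641 of 10550 measured genes (6.08%) were at least 1.5-fold higher in HFD in the class and 624 (5.91%) at least 1.5-fold lower. Without the top 1% of cells of each gene the counts were 1515 higher and 928 lower, and in thinned cells, where 5090 genes were measured, 206 and 280. The ratio lay within 1.5-fold for 88.0% of genes, and the median absolute log2 ratio was 0.23, against 0.18 in the other fibroblasts. Genes on the high side belonged to several functions. Mfap4, a microfibril-associated glycoprotein of elastic fibres, was at 2074 CPM in HFD and 1101 in NC, a ratio of 1.88 (1.82 to 1.94). Slc7a10 was at 67.8 and 31.9 CPM, a ratio of 2.12 (1.77 to 2.55). Fabp3, a fatty acid binding protein, was at 57.7 and 26.0 CPM (2.22, 1.81 to 2.71). Hes1, a transcriptional repressor downstream of Notch, was at 169 and 89.4 CPM (1.90, 1.70 to 2.12). Gucy1a1, a subunit of the nitric oxide receptor guanylate cyclase, was at 54.9 and 19.8 CPM (2.78, 2.23 to 3.47). The other high genes were Mir682, Smim4, Hotairm1, the transcription factor genes Maf and Snai2, the complex I subunit Ndufa3 and Lbh, with ratios of 1.68 to 2.74.

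On the low side, genes of protein folding and of the glucocorticoid response stood out by size. Hspa5, the chaperone BiP, was at 582 CPM in HFD and 1544 in NC, a ratio of 0.377 (0.360 to 0.394). Manf, a secreted protein of the endoplasmic reticulum, was at 108 and 319 CPM (0.339, 0.305 to 0.377). Zbtb16, a transcription factor induced by glucocorticoids, was at 15.1 and 55.1 CPM (0.274, 0.205 to 0.361). Tsc22d3, which encodes the glucocorticoid-induced leucine zipper GILZ, was at 112 and 254 CPM (0.440, 0.396 to 0.489). Has1, a hyaluronan synthase, was at 144 and 382 CPM (0.378, 0.345 to 0.414). Ly6a, the surface antigen Sca-1, was at 62.7 and 141 CPM (0.445, 0.386 to 0.512). Mt2 was at 870 and 1783 CPM (0.488, 0.470 to 0.507). The other low genes were Rhbdd2, Mir6236, Ifi205, the monocyte chemokine gene Ccl7 and the heat shock gene Hsph1, with ratios of 0.370 to 0.447. Of these 24 genes, 22 were on the same side of 1 in all 5 classes, Hotairm1 and Rhbdd2 in 4. Immune genes moved with the low side: Cd74 was at 2.48 CPM in HFD and 10.9 in NC, and Plac8 at 19.5 and 46.7, and their part in the result was not tested.

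**Figure D3:**
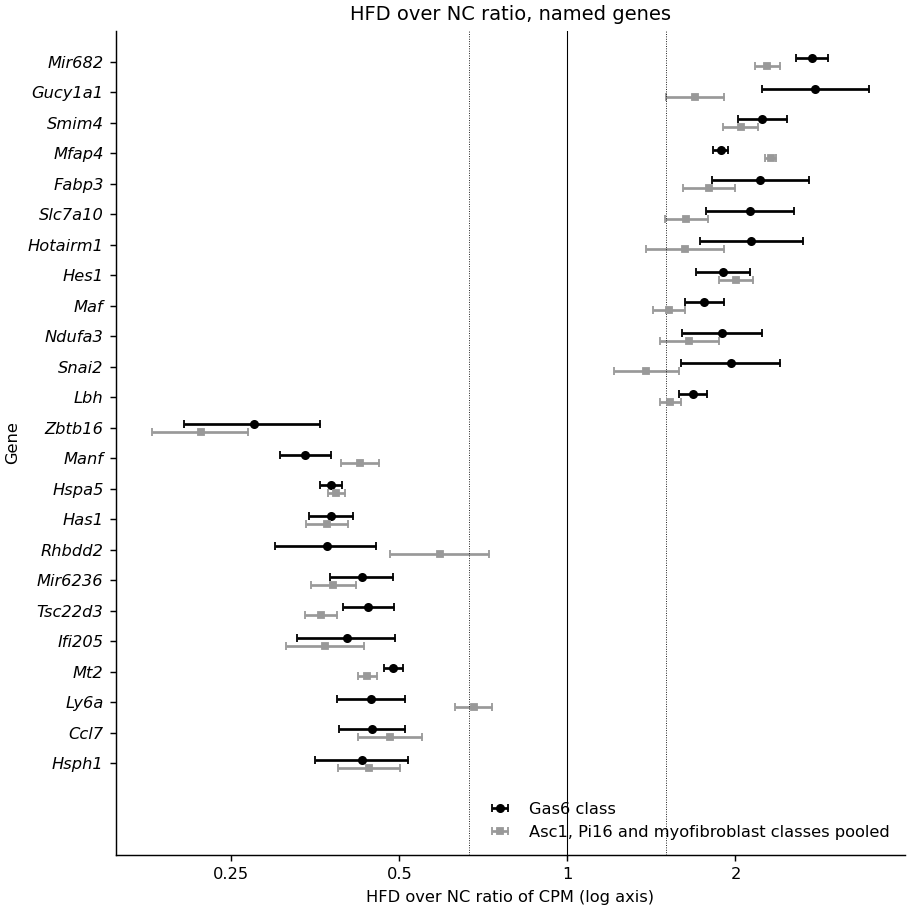
HFD over NC ratio (x axis, log axis) of the 12 highest and 12 lowest named genes in the Gas6 class, with counting intervals, beside the ratio in the other fibroblasts pooled. All 24 genes lie on the same side of 1 in the other fibroblasts; Gucy1a1 is at 2.78 in the class and 1.69 there, Zbtb16 is the lowest at 0.274.

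Because the earlier labels were in different proportions in the diets, ratios were also taken inside each label. Hspa5 was at 0.336 in gas6-labelled, 0.508 in asc1-labelled and 0.358 in N/A cells, and Manf at 0.391, 0.408 and 0.287. Mfap4 was at 1.76, 1.88 and 1.56. Those genes kept to 1 side in all 3. Slc7a10 was at 1.57, 1.28 and 1.54, and with NC cells weighted to the HFD label shares it was at 1.33 in place of 2.12. Weighted in this way, Fabp3 was at 1.57 and Snai2 at 1.49. In gas6-labelled cells alone Fabp3 was at 1.39 (0.918 to 2.10), under the threshold of 1.5, and Gucy1a1 in N/A cells was at 1.13 (0.593 to 2.08). Il6 was at 0.868, 1.24 (0.993 to 1.54) and 0.655 in the 3 labels.

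Among the lists of pathway genes, chaperones and the unfolded protein response were the lowest. Counts of called members, here and in the list paragraphs that follow, are read against 6.08% higher and 5.91% lower over all measured genes. Of 21 measured members 0 were called higher and 12 lower, 20 were below 1, and the median log2 ratio was -0.65, against 0.02 over all measured genes and -0.43 for the list in the other fibroblasts. Creld2 was at 0.273 (0.185 to 0.393) and Sdf2l1 at 0.369 (0.275 to 0.488), both residents of the endoplasmic reticulum. Of the other chaperone genes whose promoters are shown, Pdia6, a disulfide isomerase, was at 147 CPM in HFD and 236 in NC (0.621, 0.564 to 0.683). Hsp90b1, the chaperone GRP94, was at 496 and 704 CPM (0.705, 0.668 to 0.743) and was not called. Glucocorticoid-induced genes had 0 of 18 higher and 8 lower with a median of -0.57 (-0.68 in the other fibroblasts), and Fkbp5, a cochaperone of the receptor, was at 0.364 (0.258 to 0.504). The receptor gene Nr3c1 itself was at 1.41 (1.27 to 1.58). Cholesterol synthesis genes had 0 of 21 higher and 10 lower with a median of -0.52 (-0.57 in the others), as with the enzymes Idi1 at 0.442 and Cyp51 at 0.465. Cytosolic heat shock genes had 4 of 15 lower and 15 below 1, median -0.55 (-0.46 in the others).

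Cytokine and chemokine genes had 0 of 17 measured members called higher and 8 lower, with a median of -0.55, against -0.58 in the other fibroblasts. Il11 was at 5.37 CPM in HFD and 23.8 in NC (0.225, 0.136 to 0.354), and Il33, an alarmin, at 7.53 and 22.7 (0.331, 0.216 to 0.492). Cxcl9, an interferon-induced chemokine, was at 0.0516 CPM in HFD and 8.28 in NC, a level in HFD of 1 count. Il6 was at 480 and 701 CPM (0.685, 0.649 to 0.722). The neutrophil chemokine genes Cxcl1 and Cxcl2 were at 0.619 (0.587 to 0.653) and 0.475 (0.394 to 0.570). NF-kB genes had 5 of 19 lower and 0 higher with a median of -0.34; Nfkb1, the p105 precursor subunit, was at 147 and 289 CPM (0.509, 0.463 to 0.558), and Nfkb2 at 28.3 and 53.7. Nfkbia, the inhibitor shown above with its kB motif, was at 556 and 831 CPM (0.670, 0.637 to 0.703), just inside the threshold. Fos, an immediate early gene, was at 1.25, and that list had a median of -0.03, with 3 of 21 lower, Fosl1, Myc and Ier5.

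Matrix lists had medians nearer 0, and their counts are read against the 6.08% higher and 5.91% lower over all measured genes. Matrix remodelling genes had 6 of 28 lower and 0 higher, median -0.31, with P4ha1, a prolyl hydroxylase for collagen, at 0.470 and Timp1, an inhibitor of metalloproteinases, at 0.496. Collagens had 2 of 18 lower and 0 higher, median -0.30. Elastic fibre genes had 1 of 24 higher, Mfap4, and 2 lower, median -0.15, counts near that share.

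Several lists had medians above 0, among them those of respiration, of signals to the epithelium and of alveolar identity. Nuclear-encoded oxidative phosphorylation genes had 6 of 40 called higher and 0 lower, with 37 above 1 and a median of 0.32, as with Uqcr10 of complex III at 1.63 (1.503 to 1.76) and Cox6c at 1.55. Growth factor and niche signals had 6 of 26 higher and 3 lower, median 0.34. Axin2, a WNT target, was at 32.7 CPM in HFD and 14.7 in NC (2.22, 1.70 to 2.90), Ptch1, the hedgehog receptor, at 1.81 and Vegfa at 1.57. Fatty acid oxidation genes had 3 of 24 higher and 1 lower, median 0.17. Lipid droplet genes had 1 of 17 higher and 2 lower, median 0.21, the higher count being near the 6.08% over all measured genes. Myofibroblast markers had 2 of 8 higher and 0 lower, median 0.21. All 10 Asc1 markers were above 1 and 2 were called higher, median 0.31, which was 0.11 with NC weighted to the HFD shares of the earlier labels, and 4 of 9 Pi16 markers were lower, median -0.52, which was -0.36 under that weighting. Single genes went beyond their lists: Spp1, osteopontin, was at 25.1 CPM in HFD and 4.89 in NC (5.12, 3.43 to 7.83), within a list of transforming growth factor genes whose median was -0.02.

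**Figure D4:**
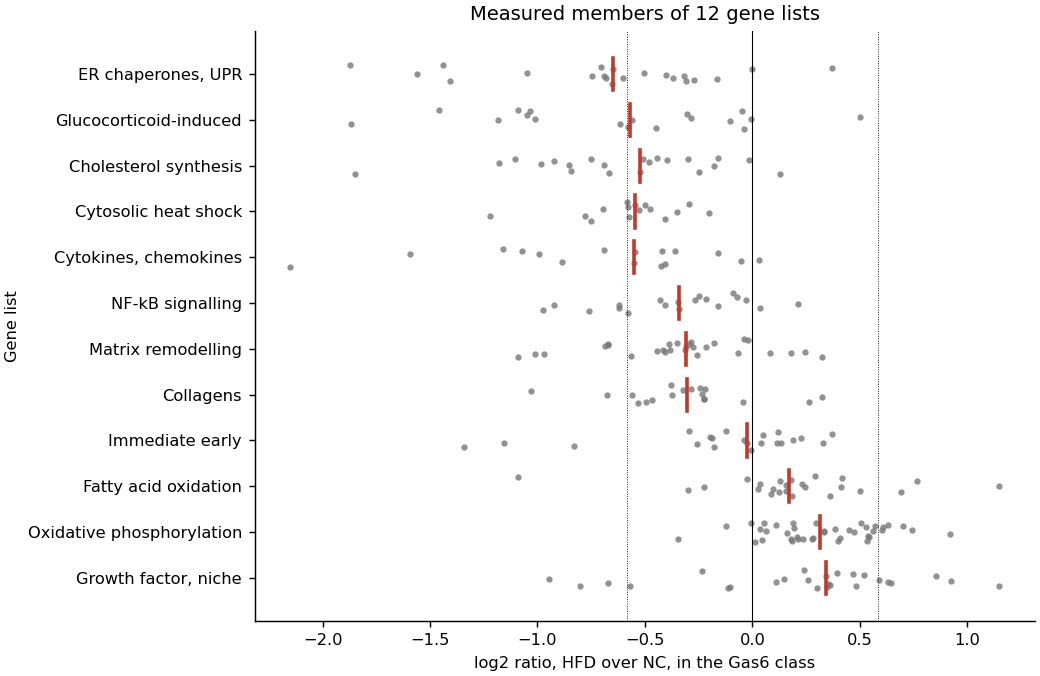
Log2 ratio of HFD over NC (x axis) of each measured member of selected gene lists (y axis) in the Gas6 class, 1 point per gene, with a red bar at the list median and dotted lines at 1.5-fold. Cxcl9 lies below the drawn range and is not shown. Chaperones lie lowest with a median of -0.65; oxidative phosphorylation genes lie at 0.32.

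The diet ratio was also set against that in the other fibroblasts. Of 2444 genes with enough counts, 7 (0.286%) had a ratio at least 1.5 times that of the other fibroblasts and 8 (0.327%) at most 1/1.5 times. Tmem100, a transmembrane protein, was at 1.47 in the class and 0.893 in the others, a ratio of ratios of 1.65 (1.34 to 2.02). Igfbp3, a binding protein for insulin-like growth factors, was at 1.54 and 1.06 (1.46, 1.34 to 1.59), and in the class it was at 0.999 (0.863 to 1.15) in gas6-labelled, 1.5003 in asc1-labelled and 1.26 in N/A cells. Tmem100 was at 1.24, 1.02 and 1.19 in those labels, so for both genes the ratio inside each of these 3 labels was below that of the whole class. Igf1 was at 0.646 and 0.417 (1.55, 1.29 to 1.86). Apoc1 was at 1.15 and 0.666 (1.72, 1.36 to 2.17). Ccl2, the monocyte chemokine, was at 0.963 and 0.642 (1.5003, 1.36 to 1.66), with 96.5% of its HFD counts and 93.5% of its NC counts in the tenth of class cells that had most. On the other side Acta2, smooth muscle actin, was at 92.1 CPM in HFD and 182 in NC, a ratio of 0.507 against 0.907 in the others (0.559, 0.487 to 0.641). The contractile genes Myl9 (0.512 and 0.871) and Tpm2 (0.608 and 0.967), the matrix gene Smoc2 (0.585 and 0.948) and Ly6a (0.445 and 0.680) had ratios of ratios of 0.588 to 0.655. Not every contractile gene did so: Tagln was at 0.815 in the class and 0.697 in the others (1.17, 1.06 to 1.29). Acta2 counts were concentrated as well, 78.3% in HFD and 79.8% in NC being in the tenth of cells that had most. In gas6-labelled, asc1-labelled and N/A cells Acta2 was at 0.536, 0.434 and 0.614, and Myl9 at 0.607, 0.399 and 0.540. Smoc2 was at 0.701, 0.361 and 0.496, and Ly6a at 0.620, 0.201 and 0.463. Tpm2 was at 0.519, 0.787 (0.552 to 1.12) and 0.856 (0.671 to 1.09), so its fall depended on the label.

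Metallothionein level differed widely within the class. The median cell had 4659 CPM of Mt1 plus Mt2 in HFD and 8929 in NC, and 133 HFD cells (12.1%) but 31 NC cells (1.55%) had no count of either. The other classes had lower medians, from 210 CPM in Asc1 to 1578 in Pi16 cells in HFD and from 1194 in pericytes to 4509 in Pi16 cells in NC. All class cells were ordered by this level and divided at the same values in both libraries into 5 metallothionein groups, each equal in size when the libraries are given equal weight. The lowest group held 333 HFD cells (30.4%, 27.7 to 33.2) and 192 NC cells (9.59%, 8.34 to 10.97). The other 4 groups each held 16.3% to 19.7% of HFD cells and 20.3% to 23.6% of NC cells. The libraries thus differed most at the low end of the order.

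Cells high in metallothionein were also high in inflammatory genes, in both libraries. Of 1244 genes with enough counts, 42 (3.38%) were at least 2-fold higher in the top than in the bottom group in both libraries and 14 (1.13%) at least 2-fold lower, a description since groups and genes come from the same cells. Il6 was at 129 CPM in the lowest and 1369 in the highest group in HFD, and at 143 and 1451 in NC. Ptgs2 was at 64.6 and 758 CPM in HFD, and at 62.5 and 526 in NC. Has1 was 11.1-fold higher in HFD and 5.55-fold in NC, and Tnfaip6, whose product crosslinks hyaluronan, 6.79-fold and 4.58-fold. Tnfaip3, the NF-kB inhibitor A20, was 5.41-fold and 6.52-fold higher, Cxcl1 4.82-fold and 4.27-fold, Hk2, hexokinase 2, 6.58-fold and 4.91-fold, and Itpkc, an inositol phosphate kinase, 5.97-fold and 4.13-fold. Among the lists, 4 of 10 NF-kB genes (Nfkb1, Tnfaip3, Tnfaip2 and Sod2) and 3 of 5 cytokine genes (Il6, Ccl2 and Cxcl1) were called higher, against 0 of 34 oxidative phosphorylation genes and 0 of 12 chaperone genes.

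Genes low in the metallothionein-high cells were Txnip, which binds thioredoxin and curbs glucose uptake, at 301 and 70.3 CPM in HFD and 316 and 76.7 in NC, and Ccn2, a matricellular growth factor target, with ratios of 0.255 and 0.331. The HSP70 genes Hspa1a (0.233 and 0.320) and Hspa1b (0.233 and 0.344), near-identical copies whose reads can be split uncertainly, were low too. Slc7a10 was at 0.289 and 0.297. Gas6 moved little along this order, with 1.25 and 1.15. The order was not one of depth from low to high: median totals were 16709 and 14405 counts in the lowest and highest group in HFD, and 13552 and 11158 in NC. The asc1-labelled share went from 52.6% to 6.52% in HFD and from 37.5% to 3.66% in NC.

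**Figure D5:**
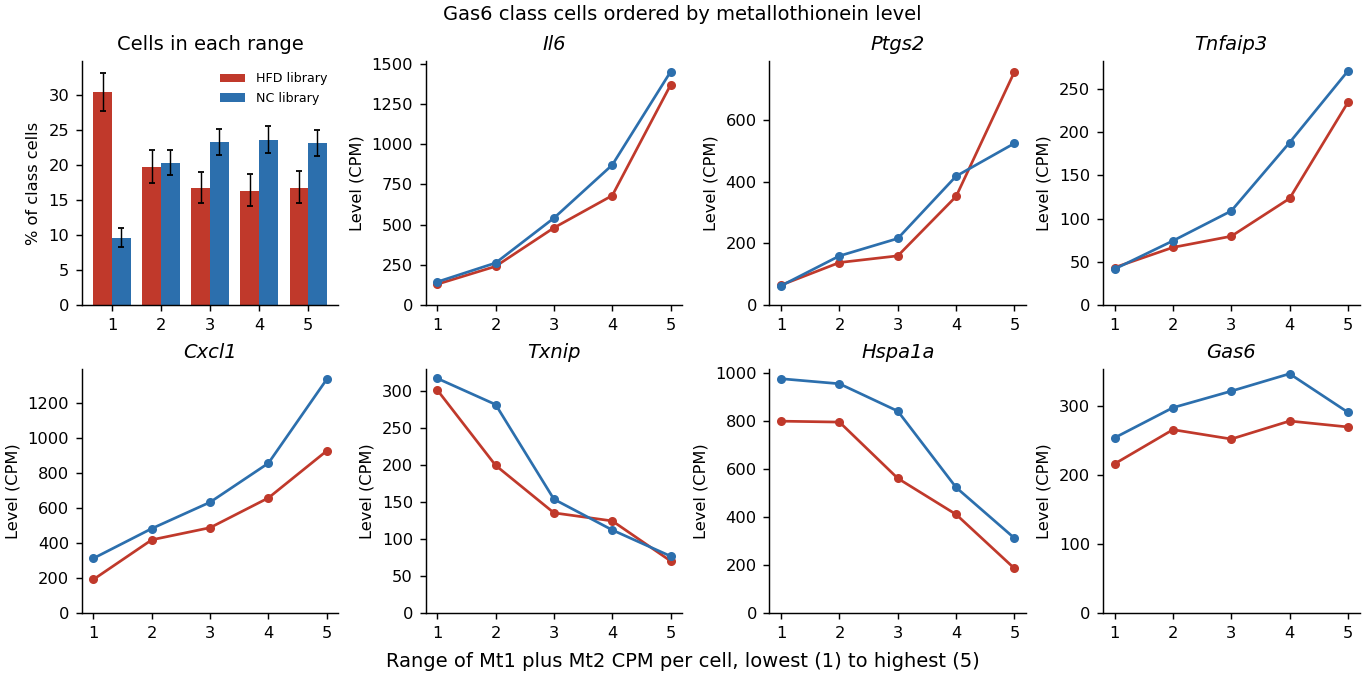
Gas6 class cells by group of Mt1 plus Mt2 level: share of each library's class cells in the group (y axis, percent, with exact binomial intervals) and level of genes across groups (CPM). The lowest group holds 30.4% of HFD and 9.59% of NC cells, and Il6 goes from 129 to 1369 CPM in HFD and from 143 to 1451 in NC.

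Inside a group the diets were closer for Il6, but not for every inflammatory gene, and the chaperone list genes Hspa5 and Manf stayed lower in HFD. The HFD over NC ratio of Il6 was 0.899 (0.695 to 1.17) in the lowest, 0.888 (0.780 to 1.01) in the middle and 0.943 (0.867 to 1.03) in the highest group, against 0.685 over the whole class. With NC cells weighted to the HFD shares of the groups it was 0.885. Hspa5 was at 0.472, 0.435 and 0.253 in those groups, and Manf at 0.397, 0.391 and 0.1997. Mfap4 was at 1.87, 1.90 and 1.61, and Slc7a10 at 1.76, 1.87 and 1.71 (0.866 to 3.32). Not every gene high in HFD stayed so in the highest group. Hes1 was at 2.53, 1.79 and 0.917 (0.607 to 1.36), and Gucy1a1 at 2.27, 1.35 and 0.925 (0.229 to 3.01). Cxcl1 was at 0.615, 0.770 and 0.694 in the lowest, middle and highest group, against 0.619 over the whole class. Has1 was at 0.256, 0.697 and 0.513, and Ptgs2 at 1.03, 0.739 and 1.44. Of the 12 genes named over the groups, the interval held 1 for 7 in the lowest group and for 6 in the highest. The NF-kB list had a median log2 ratio of -0.15 under the same weighting in place of -0.34, while that of the chaperone list was -0.59 in place of -0.65. Mt2 was at 0.669 under it, since the weighting is by metallothionein level itself.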

How the data were processed

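Cells of both libraries were read from deposited tables of log2(CPM + 1) per cell over 21014 genes; the authors' alignment used STAR on mm39, per the submitters' processing notes, with versions not given in the sources used here. The deposited tables also hold the class label, an earlier label (other), the number of detected genes (count), the total per cell (an estimated count, with a fractional part in 7.24% of the HFD cells and 5.59% of those from NC) and the mitochondrial percent. Detected genes, totals and mitochondrial percent were taken from the later of 2 sets of deposited columns. Counts per gene and cell were recovered from the log2 values and totals, and 98.8% in HFD and 99.0% in NC were whole within 0.01. Summed counts were divided by the class total to give CPM. They were also divided by a variance factor per library, 4.85 in HFD and 3.98 in NC, to give effective counts. The factor was set on genes seen in few cells and used for every gene, so it allows only in part for variation between cells. An exact conditional Poisson interval was taken for each HFD over NC ratio, and exact Clopper-Pearson intervals for shares. For a ratio of ratios the interval was a normal approximation on the log scale, from effective counts. These cover counting error only. A gene was measured at 50 effective counts or more over both libraries and called at a ratio of 1.5 or its inverse (2 for class against class). Named genes are the class markers, the 12 highest and 6 lowest against the other fibroblasts, the 12 highest and 12 lowest between diets and the 5 and 5 that differed most from the other fibroblasts, ranked by the interval bound nearest 1 with 100 effective counts and 50 CPM, the 8 highest and 4 lowest over the metallothionein groups, and up to 4 members of each list. Genes with values named outside this rule, chosen after their values were seen, describe the labels and lists. The members and lists were chosen with earlier results of these data known. Python 3.11.15 with scipy 1.17.1 was used. The interval code was run on simulated sums drawn with the same variance factor, which does not test that factor or the spread between cells. Symbols were found for 20180 genes (96.0%), of which 36 share one with another gene. Some genes are not reported here.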

Additional observations from a re-analysis of the deposited data

Results flagged for a closer look

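The deposited tables hold an earlier and a later column of total counts per cell. In HFD they differed by over 1% in 93.5% of class cells, with medians of 9455 and 16128 counts, and in NC in 0 class cells. The earlier columns enter no comparison of the report, which used the later ones. The cause was not tested.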

How the results depend on the processing

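No paired analysis was possible because each diet has 1 library, and no library could be left out. Of 893 values under other settings, 684 single-gene or list values and 56 shares or counts of genes stayed within their counting interval, within 1.5 times or, for list medians, within 0.1; most of the rest moved without turning direction. Without the cell filter the class was 15.81% of HFD and 22.35% of NC cells, and under the stricter filter 25.57% and 33.98%. HFD over NC, the genes called higher were 206 in thinned cells, 1638 at a minimum of 10 effective counts and 1515 without the top 1% of cells; those called lower were 280 in thinned cells and 1461 at the lower minimum. The ratio of ratios called 14 higher and 16 lower genes in thinned cells, and 19 lower with the other classes weighted equally. Against Asc1 cells alone 189 genes were called higher, against Pi16 cells alone 299 higher and 202 lower, and against deep Asc1 cells 192 higher. The NC share in the lowest group was 10.99% in thinned cells. Directions that turned between diets were Mt1 at 1.11 when NC was weighted by the metallothionein groups, a setting built from that gene, and Mgp at 1.05 with label weights and 1.07 in gas6-labelled cells. Against Pi16 cells alone in HFD, Lpl was at 0.970, Mmp3 0.750, Lgals3 0.816, C2 0.910, Gas6 0.898 and C4b 0.659. Against Asc1 cells alone and deep Asc1 cells, given for the library with the larger ratio, Lum was at 3.44 and 3.79, Aspn 3.05 and 2.31, Tgfbi 3.84 and 3.88, Hhip 2.45 and 2.12, Ebf1 4.50 and 17.3 and Cd9 3.49 and 5.87. These turned because the reference class was another. List medians that turned were contractile genes at 0.061 with the lower minimum, metallothionein and zinc genes at 0.023 in thinned cells, and complement genes at 0.033 in gas6-labelled cells, where the cause was not tested.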
